A study of Homo sapiens with 4 samples.

Results

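Glycolysis and hypoxia-response genes were followed in Reh-6-MPR cells by RNA-seq. The group was chosen by name: 36 gene symbols covering the glycolytic enzymes, glucose and lactate transport, the kinases that steer glycolytic flux, and the oxygen-sensing pathway with its targets. Of these, 35 were found among the 29833 genes of the expression table, and PFKFB2 was not analysed here. Reh is a long-established line of human B-cell precursor leukemia, and Reh-6-MPR is its derivative that resists 6-mercaptopurine (6-MP), a thiopurine antimetabolite. The labels give its genotype as wild type, and whether the line is a single clone is not stated in the sources used here. There were 4 libraries, 1 per treatment, from cells kept for 48 h in PBS (vehicle), 4 mM histidine, 1.0 μg/mL 6-MP, or histidine and 6-MP at those same doses (the combined treatment).

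Glycolysis splits glucose into pyruvate in the cytosol. Hexokinase traps the sugar, phosphofructokinase commits it, GAPDH and PGK1 carry out the first steps of the energy-yielding phase, and enolase and pyruvate kinase finish it. Lactate dehydrogenase then converts pyruvate to lactate, which monocarboxylate transporters export. HIF-1, a dimer of HIF1A and ARNT, is the transcription factor of low oxygen. With oxygen present, prolyl hydroxylases of the EGLN family mark HIF1A for destruction through VHL, so HIF1A is controlled mainly as a protein, which RNA-seq does not measure. Most glycolytic enzyme genes are also HIF-1 and MYC targets, and rapidly dividing leukemic lymphoblasts use glycolysis heavily.

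Values are FPKM, that is, reads scaled to the length of the gene and to the total of its library. The library totals behind them ran from 12899122 reads in the combined library to 15486376 in the histidine library. Differences are given on the log2(FPKM + 1) scale, which makes changes at low FPKM look smaller than they are. Counts of changed genes were taken over the 12750 genes whose FPKM averaged at least 1, which included 29 of the 35 members found. ALDOA, LDHB, PFKFB4, ADM, EGLN3 and SLC16A3 were below that level. With 1 library per treatment there was no replicate check on any difference and no test between treatments. Intervals are at 95% by the exact Clopper-Pearson method, from the recovered reads, so they cover counting error only and compare libraries, not treatments. The contrasts against vehicle share the vehicle library, and the contrasts of the combined treatment share the combined library. The median log2 fold change over all genes counted was 0.13 for the combined treatment against vehicle, 0.11 against histidine and 0.13 against 6-MP, so a member at 0 lay slightly below the typical gene of the combined library. In such bulk RNA, fewer cells of a type and less RNA per cell cannot be told apart.

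The B-lineage label was checked on its markers, of which 6 of 7 were analysed (CD22, CD79A, CD79B, PAX5, EBF1 and DNTT). Their summed level lay between 980.1 and 1053 FPKM in the 4 libraries, and none of the 6 was at 0. Between the combined library and vehicle they went both ways on the log2 scale, with CD79A (0.44), CD22 (0.41) and CD79B (0.32) higher and PAX5 (-0.37), EBF1 (-0.25) and DNTT (-0.16) lower. Of 4 T-cell markers, TRAC was the single one analysed, at 11.6 FPKM with vehicle, 12.2 with histidine, 12.2 with 6-MP and 32.1 in the combined library. Of 6 monocyte and granulocyte markers, 4 were analysed, and they summed to between 27.0 and 31.2 FPKM in the first 3 libraries and to 43.7 in the combined library, nearly all of it MPO. ALAS2, the single erythroid marker of 3 analysed, stayed between 0.126 and 0.492 FPKM. COL1A1, the single fibroblast marker of 4 analysed, was at 0.869, 1.05, 1.03 and 2.04 FPKM with vehicle, histidine, 6-MP and both agents. TRAC, MPO and COL1A1 were thus highest in the combined library, and their part in the results was not tested.

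The combined treatment was accompanied by lower levels of most glycolytic enzymes, while the hypoxia-response genes counted lay within 1.5-fold of vehicle on the log2(FPKM + 1) scale, apart from ANKRD37. By reads without the added 1, EGLN1 of the oxygen-sensing genes was also more than 1.5-fold higher. PGK1 was at 68.0 FPKM in the combined library against 129 to 136 FPKM in the others, and ENO1, GPI, HK2, ALDOC and the lactate transporter SLC16A1 were also at least 1.5-fold lower than with vehicle. ENO2 and ANKRD37 were at least 1.5-fold higher. GAPDH, the most abundant member, stayed between 928 and 1048 FPKM. An absolute log2 difference of 1 was reached by no member in the 5 contrasts.

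That count of 0 of 29 members stood against 6.53% of all genes for the combined treatment against vehicle, 5.55% against histidine and 6.02% against 6-MP. For the single agents against vehicle it stood against 1.33% (histidine) and 1.18% (6-MP). At the lower threshold of 1.5-fold, 6 members (20.7%) were lower in the combined library than with vehicle, against 5.49% of all genes. Another 2 members (6.90%) were higher, against 15.8% of all genes. With libraries scaled by the median ratio over genes averaging at least 1 FPKM, a scaling chosen after the data were seen, 10 members (34.5%) were lower and 1 was higher, beside 8.75% and 11.0% of all genes, and ANKRD37 was no longer past 1.5-fold. Against histidine, 5 members were lower where 5.56% of all genes were, and 1 was higher where 13.8% were. Against 6-MP, 4 members were lower where 5.09% of all genes were, and 1 was higher where 15.2% were. ENO1, GPI, HK2 and PGK1 were the 4 members at least 1.5-fold lower in all 3 contrasts, and ENO2 was the one that was higher in all 3. In the single treatments, on the log2(FPKM + 1) scale, 1 member, EGLN1, passed 1.5-fold with histidine, where 3.61% of all genes did. With 6-MP 0 did, where 3.57% of all genes did. By reads without the added 1, SLC16A1 was also past 1.5-fold with histidine, at -0.68 (-1.08 to -0.29). So were EGLN1 with 6-MP, at 0.84 (0.44 to 1.26), and ANKRD37 with 6-MP, at 0.59 (-0.20 to 1.40). The share of all genes past 1.5-fold by reads was not taken. Across the 29 members the median log2 fold change of the combined treatment against vehicle was -0.06, with 18 members below 0 and 11 above. Of the 12750 genes counted, 4638 were below 0 and 8110 above.

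**Figure D1:**
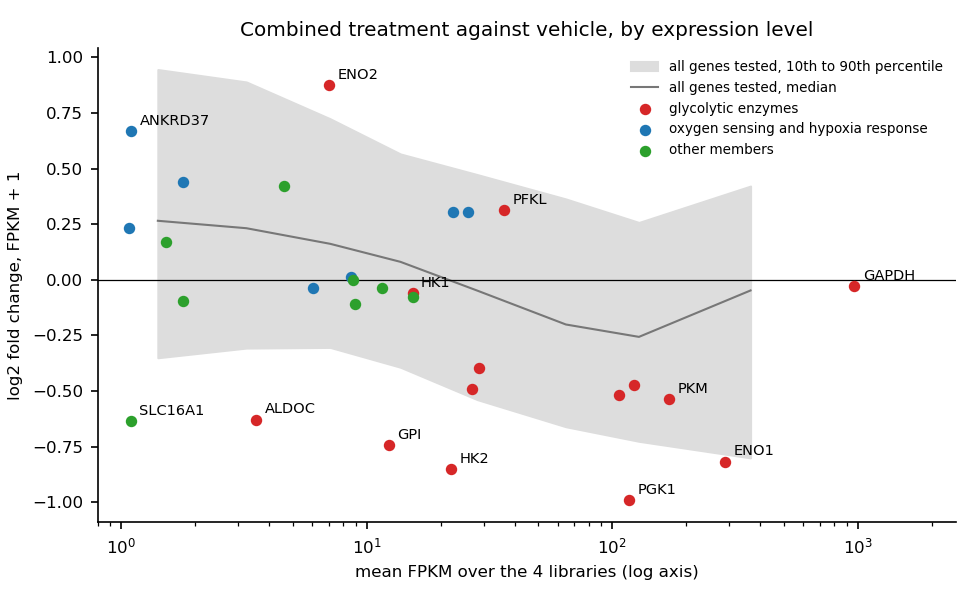
Log2 fold change of the combined treatment against vehicle (FPKM + 1) for the 29 members, by mean FPKM over the 4 libraries on a log axis; the band spans percentiles 10 to 90 of all genes in bins of level and the grey line their median. PGK1, HK2, GPI, ENO1, ALDOC and SLC16A1 lie below the band, ENO1 just so, ENO2 lies above it, and the median of all genes goes from 0.27 at a mean of 1 to 2 FPKM to -0.26 at 100 to 200 FPKM.

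Many glycolytic enzymes are abundant, and the fold changes of all genes varied with their level, so the comparison was repeated within levels. The median over all genes was -0.20 at a mean of 50 to 100 FPKM, -0.26 at 100 to 200 and -0.05 at 200 and above. Among the 4676 genes averaging at least 10 FPKM, 7.19% were at least 1.5-fold lower than with vehicle, beside 4 of 16 members. Among 298 genes with a mean of at least 100, 17.8% were lower, beside 2 of 6 members, PGK1 and ENO1. The median log2 fold change at a mean of at least 100 was -0.18 for all genes and -0.53 for the 6 members. At a mean of at least 10 it was 0.0094 for all genes and -0.44 for the 16 members.

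The promoters of PGK1, GAPDH, ENO1 and ENO2 are shown because these genes are neighbours in the pathway but had different changes in the combined library. Each sequence is the RefSeq entry on GRCh38.p14, 250 bases before to 50 after a transcription start, 5′ to 3′ on the strand of the gene. Capitals mark the letters ACGTG or their reverse CACGT, the core of the hypoxia response element, which also lies in the E-box CACGTG read by MYC and MAX. PGK1 is at chrX:78103998-78104297 on the plus strand, GAPDH at chr12:6535014-6535313 on the plus strand, ENO1 at chr1:8878637-8878936 on the minus strand and ENO2 at chr12:6914330-6914629 on the plus strand. Each of these entries lies inside the span of its gene in the deposited table, so any start further upstream is not shown.
PGK1: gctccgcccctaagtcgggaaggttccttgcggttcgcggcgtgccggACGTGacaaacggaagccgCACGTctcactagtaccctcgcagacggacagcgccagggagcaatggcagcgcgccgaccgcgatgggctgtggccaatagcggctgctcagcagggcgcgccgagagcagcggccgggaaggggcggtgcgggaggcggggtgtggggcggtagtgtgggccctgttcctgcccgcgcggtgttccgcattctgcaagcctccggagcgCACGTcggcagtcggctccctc
GAPDH: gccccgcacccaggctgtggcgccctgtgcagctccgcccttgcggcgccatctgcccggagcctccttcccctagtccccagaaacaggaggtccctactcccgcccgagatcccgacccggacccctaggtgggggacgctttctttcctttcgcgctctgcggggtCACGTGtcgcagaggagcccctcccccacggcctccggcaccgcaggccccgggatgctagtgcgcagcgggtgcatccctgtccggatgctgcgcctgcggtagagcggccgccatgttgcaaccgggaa
ENO1: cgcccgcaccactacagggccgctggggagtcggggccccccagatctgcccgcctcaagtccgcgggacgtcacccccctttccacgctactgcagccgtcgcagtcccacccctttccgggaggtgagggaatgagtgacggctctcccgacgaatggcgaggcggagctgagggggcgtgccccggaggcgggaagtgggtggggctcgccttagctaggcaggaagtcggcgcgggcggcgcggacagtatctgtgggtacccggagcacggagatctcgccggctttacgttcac
ENO2: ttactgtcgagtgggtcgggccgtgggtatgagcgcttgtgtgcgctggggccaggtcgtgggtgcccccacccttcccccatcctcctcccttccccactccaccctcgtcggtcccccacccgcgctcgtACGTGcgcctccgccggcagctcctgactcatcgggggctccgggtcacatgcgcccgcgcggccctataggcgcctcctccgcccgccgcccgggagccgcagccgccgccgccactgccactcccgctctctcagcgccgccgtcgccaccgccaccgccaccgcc

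PGK1 held 3 core matches, none in an E-box, starting at positions -202, -183 and 29 from the transcription start. The GAPDH entry, which starts inside the gene, held 1 E-box, which matches the core on both strands. ENO2 held 1 core match at -118, and ENO1 held 0. Promoters were found for 31 of the 35 members, with 59 entries since several genes have more than 1 start. ACGTG was present on either strand in 24 of 59 entries (40.7%), beside 21.4% of all 35116 promoters and 25.8% of the 12308 promoters of genes averaging at least 1 FPKM. CACGTG was present in 8 of 59 (13.6%), beside 7.26% of all promoters and 9.53% of those of expressed genes, and ACGTG outside an E-box in 19 of 59 (32.2%), beside 15.5% of all. The members were chosen as glycolysis and hypoxia-response genes, many of them known HIF-1 and MYC targets, so a higher share is in part built into the list. Entries of a gene can overlap and are not independent: the PFKM matches at 7 and -122 in different entries are the same bases. The match is a description of letters, and binding was not measured.

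Glucose enters through the transporters GLUT1 (SLC2A1) and GLUT3 (SLC2A3). SLC2A1 was at 8.71 FPKM with vehicle, 9.86 with histidine, 9.20 with 6-MP and 8.01 in the combined library. SLC2A3 was at 4.18, 4.02, 4.26 and 5.93 FPKM in the same order. The combined library thus had the lowest SLC2A1 and the highest SLC2A3, and the SLC2A3 share of their summed FPKM was 42.5% there against 28.96% to 32.4% in the others. The log2 fold change of SLC2A3 against vehicle was 0.42, and that of SLC2A1 was -0.11, with an interval of the read ratio that included 0 (-0.27 to 0.026).

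Hexokinase traps glucose as glucose 6-phosphate. HK2, the inducible and strongly regulated form, was at 24.3 FPKM with vehicle, 26.4 with histidine, 24.2 with 6-MP and 13.02 in the combined library. The widely expressed HK1 was at 14.95, 16.4, 15.8 and 14.3 FPKM. HK2 (ENSG00000159399) lies at chr2:74834127-74893359 on GRCh38, as the deposited table gives it. The first 3 libraries were close for HK2 and the combined library stood below them, whereas HK1 was nearly level. HK2 made up 60.5% to 61.9% of the summed hexokinase FPKM in the first 3 libraries and 47.7% in the combined one. HK2 had a log2 fold change of -0.85 against vehicle, -0.97 against histidine and -0.85 against 6-MP.

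GPI, which turns glucose 6-phosphate into fructose 6-phosphate, was at 13.9, 13.8, 13.7 and 7.92 FPKM with vehicle, histidine, 6-MP and the combined treatment. Its log2 fold change against vehicle was -0.74, and the log2 ratio of reads was -0.81 (-0.92 to -0.71). The phosphofructokinase subunits catalyse the committed step, and their genes went apart. PFKL, the liver-type subunit, was at 33.5, 35.5, 34.0 and 41.8 FPKM, highest in the combined library. PFKM, the muscle-type subunit, was at 29.5, 29.1, 27.8 and 20.7 FPKM, and PFKP, the platelet-type subunit, at 30.6, 31.6, 28.99 and 22.97 FPKM, both lowest in the combined library. Their log2 fold changes against vehicle were 0.31 for PFKL, -0.49 for PFKM and -0.40 for PFKP, none of them as large as 1.5-fold. The PFKL share of the summed phosphofructokinase FPKM was 48.9% in the combined library and 35.8% to 37.5% in the others.

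**Figure D2:**
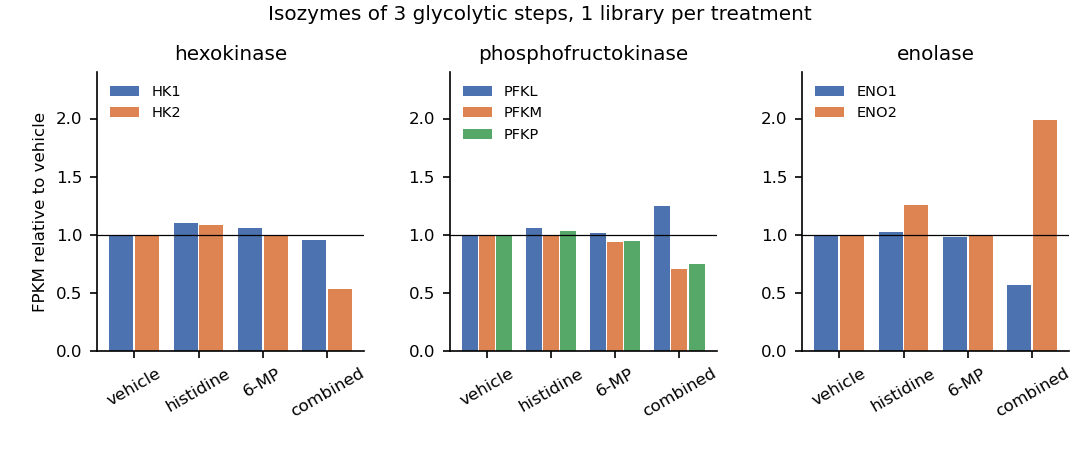
FPKM of hexokinase, phosphofructokinase and enolase genes relative to vehicle, in bars from 0, 1 library per treatment. In the combined library the bars of HK2, PFKM, PFKP and ENO1 lie below 1 and those of PFKL and ENO2 above it, and apart from ENO2 with histidine the bars of the single agents lie near 1.

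Aldolase splits the 6-carbon sugar. ALDOC was at 4.17 FPKM with vehicle, 4.23 with histidine, 3.42 with 6-MP and 2.34 in the combined library, on 156, 171, 137 and 79 reads. The log2 fold change against vehicle was -0.63 and the log2 ratio of reads was -0.83 (-1.24 to -0.43). ALDOA, usually the main aldolase of dividing cells, was listed at 0.119 to 0.292 FPKM on 7 to 16 reads. In GENCODE 29, 42.3% of its exonic bases lie also in exons of ENSG00000285043 on the same strand, and how reads in 2 genes were counted is not given in the sources used here. The level of ALDOA could therefore not be read from this table. TPI1, which interconverts the 2 triose phosphates, was at 132, 134, 132 and 94.7 FPKM, lowest in the combined library, with a log2 fold change against vehicle of -0.47.

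GAPDH, which oxidises glyceraldehyde 3-phosphate and is often used as a reference gene, was at 946 FPKM with vehicle, 951 with histidine, 1048 with 6-MP and 928 in the combined library. The 6-MP library was the highest and the other 3 were close together. Its log2 fold change for the combined treatment against vehicle was -0.03, and it was 0.01 with every library scaled to the same FPKM total, -0.27 with median-ratio scaling over all genes above 0 and -0.18 with that over genes averaging at least 1 FPKM. PGK1, the next enzyme, which makes the first ATP of the pathway, was at 136, 129, 134 and 68.0 FPKM on 10601, 10883, 11207 and 4767 reads. PGK1 (ENSG00000102144) spans chrX:77910739-78129295 on GRCh38 in the deposited table, GAPDH (ENSG00000111640) chr12:6534512-6538374, and 1.76% of the exonic bases of PGK1 are shared with ATP7A, which had 251 to 298 reads. The combined library stood alone at the low end for PGK1, and the other 3 were close together. The log2 fold change was -0.99 against vehicle, -0.92 against histidine and -0.97 against 6-MP. On this scale it was the largest decrease among the 29 members against vehicle and against 6-MP, whereas the log2 ratio of reads was -1.003 and -0.98 for PGK1 and -1.29 and -1.05 for SLC16A1 in these contrasts.

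PGK1 set against GAPDH does not depend on how the libraries are scaled. PGK1 FPKM over GAPDH FPKM came to 0.144 (vehicle), 0.136 (histidine), 0.128 (6-MP) and 0.0733 (combined). The ratio in the combined library was 1.97-fold lower than with vehicle, a log2 change of -0.98 (-1.03 to -0.92). It was 1.86-fold lower than with histidine and 1.75-fold lower than with 6-MP. The change was far smaller in the single treatments, at -0.083 (-0.13 to -0.039) for histidine and -0.17 (-0.21 to -0.12) for 6-MP. In the 6-MP library GAPDH had a log2 fold change of 0.15 against vehicle and PGK1 one of -0.02. Against PKM the log2 change of PGK1 in the combined treatment was -0.46 and against ENO1 it was -0.18. The deposited table also lists 21 GAPDH pseudogenes with 113 to 154 reads in sum, beside 28677 to 38519 reads for GAPDH itself, and 2 PGK1 pseudogenes with 2 to 7 reads.

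**Figure D3:**
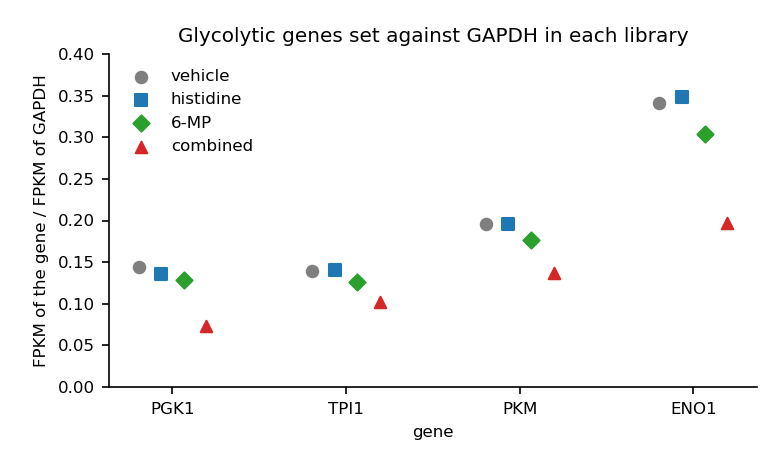
FPKM of PGK1, TPI1, PKM and ENO1 divided by the FPKM of GAPDH in the same library, 1 point per library. The combined library is the lowest point for each gene, and the PGK1 ratio there is 0.0733 against 0.128 to 0.144 in the other libraries.

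PGAM1, the phosphoglycerate mutase, was at 115, 114, 115 and 80.4 FPKM with vehicle, histidine, 6-MP and both agents, which put it at -0.52 on the log2 scale against vehicle. ENO1, the main enolase of most cells, was at 323, 331, 318 and 183 FPKM, and its log2 fold change was -0.82 against vehicle, -0.85 against histidine and -0.79 against 6-MP. ENO2, the enolase best known from neurons, was at 5.38, 6.74, 5.34 and 10.7 FPKM on 330, 447, 351 and 592 reads. ENO1 (ENSG00000074800) lies at chr1:8861000-8879190 and ENO2 (ENSG00000111674) at chr12:6913745-6923698 on GRCh38. ENO1 was lowest and ENO2 highest in the combined library. ENO2 made up 5.54% of the summed FPKM of ENO1 and ENO2 there and 1.64% to 1.996% elsewhere. ENO3, an enolase outside the members, was at 4.52, 4.35, 3.83 and 7.41 FPKM, with a log2 fold change of 0.61 against vehicle. It too was highest in the combined library. ENO2 had a log2 fold change of 0.88 against vehicle, 0.60 against histidine and 0.89 against 6-MP. On chromosome 12, ENO2 starts 42796 bases after the end of TPI1, with 3 genes of the table between them, and their changes had opposite signs. PKM, the pyruvate kinase gene of most tumours, was at 185, 186, 185 and 127 FPKM, with a log2 fold change of -0.54 against vehicle.

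Of the 14 glycolytic enzyme genes counted, 12 were below 0 and 2 (PFKL and ENO2) above 0 in each contrast of the combined treatment. Against vehicle, 4638 of all 12750 genes were below 0 and 8110 above. In that contrast GAPDH was the one of the 14 whose sign turned with the scaling. Their median log2 fold change against vehicle was -0.50, beside 0.13 over all genes. Under the median-ratio scaling over genes averaging at least 1 FPKM this median was -0.66. There 12 of the 14 were again below 0, where 6357 of all genes were below 0 and 6391 above. Against histidine the median was -0.49 and against 6-MP it was -0.44. With histidine alone the median was 0.0175 and with 6-MP alone it was -0.0072. The 15 enzyme genes together took 0.810% of all reads with vehicle, 0.817% with histidine, 0.829% with 6-MP and 0.611% in the combined library. Without GAPDH the share was 0.583%, 0.589%, 0.578% and 0.388%.

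**Figure D4:**
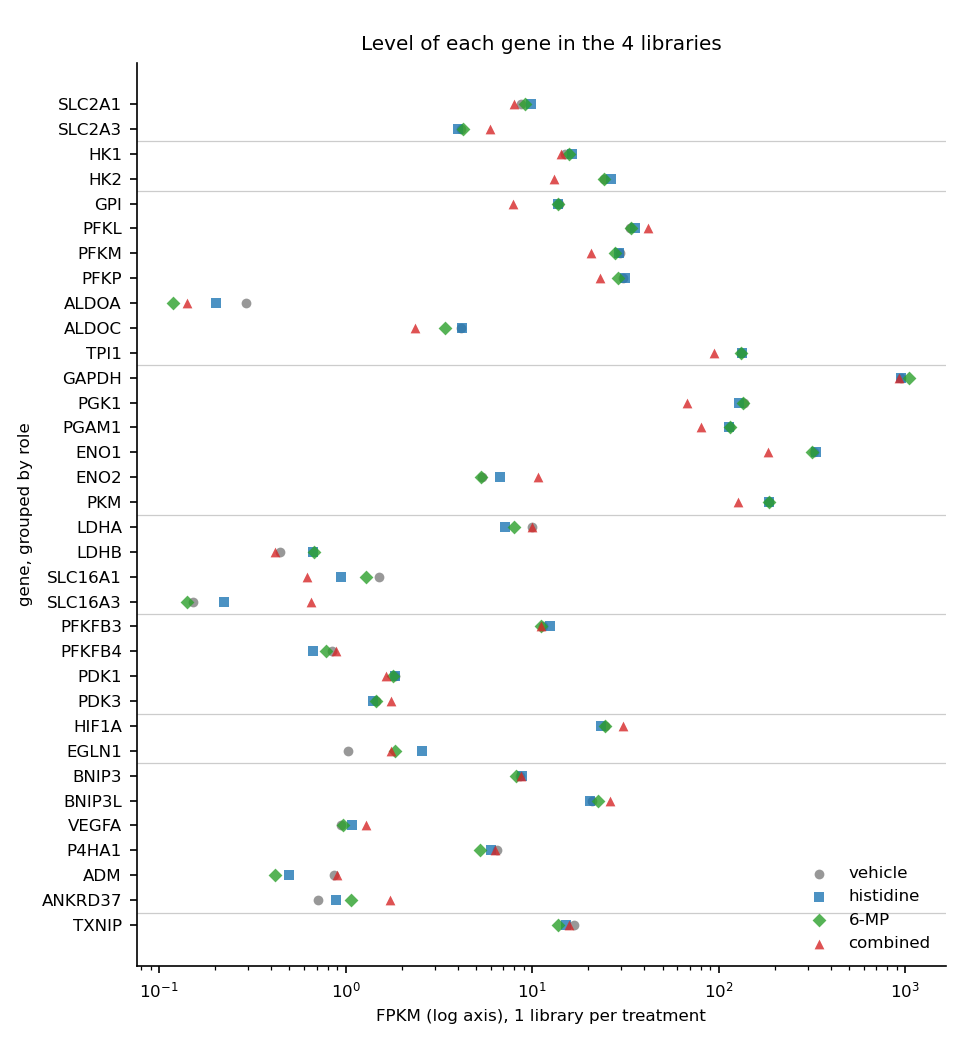
FPKM of 34 members in each of the 4 libraries on a log axis, grouped by role, with EGLN3 left out since it had 0 FPKM in 3 libraries. For most enzymes from HK2 to PKM the vehicle, histidine and 6-MP points nearly coincide and the combined point lies to their left.

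LDHA, which reduces pyruvate to lactate, was at 9.95 FPKM with vehicle, 7.13 with histidine, 7.999 with 6-MP and 9.95 in the combined library. It was lower in both single treatments than in the other 2 libraries. Its log2 fold change was -0.43 with histidine and -0.28 with 6-MP, and 0.0002 with the combined treatment, where the sign turned with the scaling of the libraries. LDHB was listed at 0.416 to 0.677 FPKM on 16 to 31 reads, and 33.4% of its exonic bases are shared with ENSG00000285854, so its level could not be read either. SLC16A1 (MCT1), which carries lactate across the cell membrane, was at 1.52, 0.946, 1.29 and 0.623 FPKM on 138, 93, 126 and 51 reads. It was lowest in the combined library and second lowest with histidine. The log2 fold change against vehicle was -0.63 and the log2 ratio of reads was -1.29 (-1.78 to -0.81). SLC16A3 (MCT4), the transporter known for lactate export under hypoxia, was under the level counted, at 0.151, 0.224, 0.141 and 0.655 FPKM on 20, 32, 20 and 78 reads. The combined library was the highest for SLC16A3, with a log2 ratio of reads against vehicle of 2.11 (1.39 to 2.90). That library also had the most genes above 0 FPKM, at 25443 beside 23635 to 23978 elsewhere. How many genes of such low level rose as much was not counted, so the rise is not shown to be particular to SLC16A3.

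The kinases that steer flux stayed near vehicle. PFKFB3, which makes the activator of phosphofructokinase, was at 11.5, 12.5, 11.1 and 11.2 FPKM with vehicle, histidine, 6-MP and the combined treatment. PFKFB4, of the same family, was under the level counted at 0.666 to 0.889 FPKM. PDK1 and PDK3 hold pyruvate dehydrogenase inactive. PDK1 was at 1.66 to 1.84 FPKM and PDK3 at 1.41 to 1.75 FPKM, with log2 fold changes for the combined treatment against vehicle of -0.10 and 0.17. TXNIP, which restrains glucose uptake and is induced by glucose, was at 16.7, 15.2, 13.8 and 15.7 FPKM, and its log2 fold change was -0.08 with the combined treatment and -0.25 with 6-MP.

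HIF1A itself was at 24.7 FPKM with vehicle, 23.5 with histidine, 24.7 with 6-MP and 30.7 in the combined library. Its log2 fold change against vehicle was 0.31 (log2 ratio of reads 0.32, from 0.23 to 0.41). EGLN1, the main prolyl hydroxylase that marks HIF1A, was at 1.03, 2.56, 1.84 and 1.74 FPKM on 79, 213, 152 and 121 reads. The vehicle library was the lowest for EGLN1 and the histidine library the highest, with a log2 fold change of 0.81 for histidine and a log2 ratio of reads of 1.32 (0.94 to 1.71). For the combined treatment against vehicle its log2 fold change was 0.44, within 1.5-fold. The log2 ratio of reads was 0.77 (0.34 to 1.19), which is past 1.5-fold. EGLN3, a hydroxylase induced by hypoxia, had 1 read in the combined library and 0 in each of the others, at or under the floor of 3 reads, so no fold is given.

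Targets of the hypoxia response that were counted lay within 1.5-fold of vehicle in the combined library on the log2(FPKM + 1) scale, apart from ANKRD37, which was higher. BNIP3 and BNIP3L act in the removal of mitochondria. BNIP3 was at 8.63, 8.80, 8.21 and 8.71 FPKM, and its log2 fold change of 0.01 for the combined treatment against vehicle turned sign with the scaling. Beside its 598 to 726 reads the table holds 16 BNIP3 pseudogenes with 59 to 118 reads in sum. BNIP3L was at 20.9, 20.4, 22.5 and 26.1 FPKM, highest in the combined library. VEGFA, the angiogenic growth factor, was at 0.949 to 1.29 FPKM, and P4HA1, a collagen prolyl hydroxylase subunit, at 5.27 to 6.504 FPKM. ADM, which encodes the peptide adrenomedullin, was under the level counted, at 0.421 to 0.900 FPKM on 15 to 29 reads. ANKRD37, a small ankyrin-repeat protein gene known as a HIF-1 target, was at 0.713, 0.888, 1.07 and 1.72 FPKM on 23, 31, 37 and 50 reads. Its combined library was the highest, with a log2 fold change of 0.67 and a log2 ratio of reads of 1.27 (0.53 to 2.05) against vehicle. Among the 2233 genes at a mean of 1 to 2 FPKM, the median log2 fold change was 0.27. Percentiles 10 to 90 of these genes ran from -0.35 to 0.95, so ANKRD37 lay within the range usual at its level. Of the 7 oxygen-sensing and hypoxia-response members counted, 6 were above 0 and 1 (P4HA1) below against vehicle, where 8110 of all 12750 genes were above 0 and 4638 below. The median log2 fold change of the 7 was 0.30, beside 0.13 over all genes. This median was 0.07 with median-ratio scaling over all genes above 0 and 0.15 with that over genes averaging at least 1 FPKM, with 5 above 0 and 2 below under both, and ANKRD37 was then within 1.5-fold. Against histidine it was 0.14 and against 6-MP it was 0.22.

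**Figure D5:**
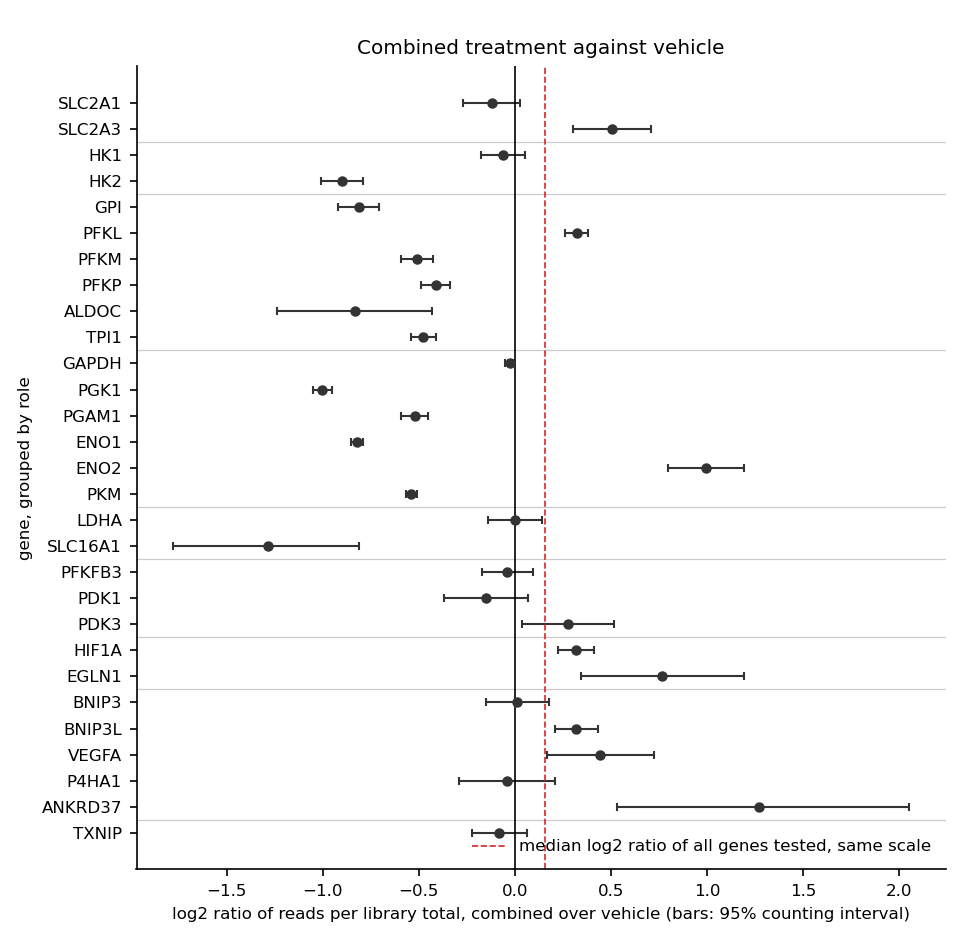
Log2 ratio of reads per library total, combined treatment over vehicle, for the 29 members by role, with bars for the exact 95% counting interval and a dashed line at the median of all genes on the same scale (0.16). The points from HK2 to PKM lie mostly left of 0, with PFKL and ENO2 to the right, and the wide bars of SLC16A1 and ANKRD37 show their few reads.

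The combined treatment was also set against the sum of the single treatments on the log2 scale, by taking its log2 difference from vehicle and subtracting the differences of histidine and of 6-MP from vehicle. No member departed from that sum by 1 or more, beside 6.76% of all genes. The departures of HK2 (-0.96), PGK1 (-0.90), ENO1 (-0.83) and GPI (-0.71) were close to their fold changes against vehicle, since neither agent alone moved these genes much. The departure of EGLN1 was -0.86 and that of LDHA was 0.71, both in genes that had moved in the single treatments, and that of ENO2 was 0.61.

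The rest of the HIF pathway was taken as a list of 10 genes beside the members. Of these, 8 were counted, and 0 passed 1.5-fold in either direction in any contrast. For the combined treatment against vehicle, 15.8% of all genes were at least 1.5-fold higher and 5.49% lower. In that contrast the median log2 fold change was -0.08 for the 8 genes and 0.13 over all genes. ARNT, the partner of HIF1A, was at 12.4, 13.1, 12.8 and 13.9 FPKM. VHL, the ubiquitin ligase subunit that binds hydroxylated HIF1A, was at 26.4, 25.9, 25.3 and 26.0 FPKM. Among the genes counted, the lowest log2 fold change against vehicle was that of ELOB (-0.52), a partner of VHL. The highest was that of HIF1AN (0.27), the asparaginyl hydroxylase of HIF1A. EPAS1 and HIF3A were under the level counted and stand outside these counts. EPAS1 had 23, 21, 28 and 37 reads, and HIF3A had 16 in the combined library and 0 in each of the others. Their read intervals against vehicle lay above 0. How many other genes under the level had such intervals was not counted, so these rises are not shown to be particular to the HIF pathway.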

How the data were processed

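Total RNA of Reh-6-MPR cells was made into stranded mRNA libraries, 1 per treatment. The authors deposited FPKM values per gene with symbols and positions. The submitters' processing notes name Trimmomatic, HISAT2, Cufflinks and HTSeq and the build hg38 (GRCh38), with no versions. The annotation, the strand setting and the treatment of reads in more than 1 gene are not given in the sources used here. The authors called genes with DESeq2, which needs replicates and was not run here.

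Since FPKM values of a gene step by whole reads, its reads could be worked out, and they came out whole for 29828 of 29833 genes. The library totals were 14316493 (vehicle), 15486376 (histidine), 15342296 (6-MP) and 12899122 (combined). The lengths of some genes are known only up to a whole factor, and the recovered reads summed to 100.34% to 100.35% of these totals. Fold changes were differences of log2(FPKM + 1) over genes averaging at least 1 FPKM, called at an absolute value of 1. Reads of a member were compared between libraries by exact Clopper-Pearson 95% intervals, and 3 reads were taken as the floor for a fold.

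The members and lists were chosen with earlier results of these data known. The lists beside the members were the HIF pathway, other HIF targets, other glycolytic isozymes, pyruvate oxidation and the tricarboxylic acid cycle, the pentose phosphate pathway, glycogen and gluconeogenesis, the Mondo and arrestin genes, and cell type markers. A few genes of these lists are not reported here. Full values were given for PGK1, GAPDH, any member past the threshold and the 10 members with the largest change in combined against vehicle, and other members were described by role. Genes of the lists were named where they passed the threshold in a contrast of the combined treatment, and any other gene of a list was named after its values were seen. Exon overlaps were taken from GENCODE 29 and promoters from RefSeq (GRCh38.p14).

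Results were recomputed with 0.1 as the pseudocount, with the level filter dropped or raised to 5 FPKM, with libraries scaled by median ratios over genes above 0 or to one FPKM total (TPM), with a 1.5-fold threshold, and with read ratios without a pseudocount. Median-ratio scaling over genes averaging at least 1 FPKM was added after the data were seen. Recovery and fold calls were tested on simulated data. The software was numpy 2.4.6, scipy 1.17.1, pandas 2.3.3 and matplotlib 3.10.9 under Python 3.11.15.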

Additional observations from a re-analysis of the deposited data

How the results depend on the processing

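With 1 library per treatment no result has a replicate error, leaving out replicates did not apply, and depth limits members with few reads such as SLC16A1, ANKRD37 and ADM. No paired analysis was possible because there is only 1 library per treatment, so that no result comes from a test. The count of members past the threshold was 0 in each contrast and under additivity as reported, and it was also 0 without a filter and at a mean FPKM of at least 5. For the combined treatment against vehicle it was 3 with a pseudocount of 0.1 (ANKRD37, PGK1, SLC16A1), 3 with median-ratio scaling (ENO1, HK2, PGK1), 2 with TPM scaling (ANKRD37, SLC16A3), 8 at 1.5-fold and 3 with read ratios without a pseudocount (ANKRD37, PGK1, SLC16A1). Against histidine these counts were 1 (HK2), 3, 0, 6 and 1 (HK2), and against 6-MP they were 0, 3, 1 (SLC16A3), 5 and 2 (ENO2, SLC16A1). For histidine against vehicle they were 1, 0, 1, 1 and 1 (EGLN1 each time), and for 6-MP against vehicle they were all 0. For additivity they were 2 (EGLN1, HK2), 3, 2 (ADM, EGLN1), 7 and 2 (EGLN1, HK2). Median-ratio scaling over genes averaging at least 1 FPKM, added after the data were seen, gave 1 (PGK1), 2 (HK2, PGK1) and 1 (PGK1) for the combined treatment against vehicle, histidine and 6-MP, and 2 (HK2, PGK1) for additivity. Its factor moved the combined library against vehicle by 0.16 on the log2 scale, and that over all genes above 0 by 0.24. The median log2 fold change of the members against vehicle was -0.06 as reported, -0.27 with median-ratio scaling over all genes (all genes -0.07) and -0.19 with the added scaling. With TPM scaling the level filter was applied to the rescaled values, so 33 members were counted, and SLC16A3 and ADM entered through that. Otherwise PGK1, HK2 and ENO1 lay just short of the threshold, and SLC16A1, ANKRD37 and EGLN1 have low FPKM. The log2 change of the PGK1 to GAPDH ratio kept its direction and lay between -0.96 and -0.98. Library scaling can move a ratio within a library only through the pseudocount, so the scalings were no check on that result. GAPDH, LDHA, BNIP3, PFKFB4 and ADM changed sign with the scaling against vehicle.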

Other observations

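Among 29 other HIF target genes, 16 were counted, and their median log2 fold change for the combined treatment against vehicle was 0.23, beside 0.13 over all genes; 3 were at least 1.5-fold higher and 0 lower, beside 15.8% and 5.49% of all genes. Against 6-MP, 2 were at least 1.5-fold higher and 1 lower, beside 15.2% and 5.09% of all genes. The lower one was ERO1A (-0.65), an oxidase of the endoplasmic reticulum named after its values were seen. DDIT4, a stress-induced inhibitor of mTORC1, was at 20.9 FPKM with vehicle, 20.5 with histidine, 22.4 with 6-MP and 60.3 under both agents, which is 1.48 on the log2 scale against vehicle. PPFIA4 was at 0.892, 1.16, 0.745 and 2.64 FPKM and passed the threshold against 6-MP (1.06). Both genes were highest in the combined library. ANGPTL4, also among the 3 higher ones, was at 0.68 against vehicle. Genes of this list under the level counted stand outside these counts. NDRG1 had 49 reads with vehicle and 159 in the combined library, P4HA2 93 and 214, BHLHE40 16 and 52, and RORA 14 and 42. Their read intervals against vehicle lay above 0, and those of the other genes under the level included 0 or could not be given. Over the whole series, genes above 0 FPKM numbered 25443 in the combined library and 23635 with vehicle. The share of all genes under the level with such intervals was not taken, so these rises are not shown to be particular to HIF targets. Of 24 further glycolytic isozymes and transporters, 6 were counted, with a median of 0.21 against vehicle, beside 0.13 over all genes. SLC16A8, a monocarboxylate transporter, was at 0.789, 1.11, 0.560 and 2.56 FPKM and stood 1.19 above 6-MP on the log2 scale. BPGM, which diverts a glycolytic intermediate to 2,3-bisphosphoglycerate, was lowest in the combined library, at 7.70, 6.46, 6.21 and 3.51 FPKM.

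The pathways that branch from glycolysis or follow it were described in the same way. Of the 8 pentose phosphate genes the median against vehicle was -0.13. H6PD, which starts this pathway in the endoplasmic reticulum, was highest in the combined library at 12.2 FPKM, beside 4.13 with vehicle, 5.60 with histidine and 5.40 with 6-MP, a log2 fold change of 1.36 against vehicle. RPIA, an isomerase of its non-oxidative branch, was lowest there at 17.2 FPKM, beside 28.4, 29.3 and 27.4. Of 27 genes of pyruvate oxidation and the tricarboxylic acid cycle counted, 20 were below 0 against vehicle, where 4638 of all 12750 genes were. The median of the 27 was -0.18, and 3 (PDHA1, DLAT and SDHB) were at least 1.5-fold lower, beside 5.49% of all genes. Of 8 glycogen and gluconeogenesis genes counted the median was -0.14, and 0 passed 1.5-fold, where 15.8% of all genes were higher and 5.49% lower. Of 5 Mondo and arrestin genes counted, which include relatives of TXNIP and the sugar-sensing factors that drive it, the median was 0.44. ARRDC3, such a relative, was at 5.87, 5.56, 6.93 and 12.4 FPKM, with log2 fold changes of 0.96 against vehicle and 1.03 against histidine, while TXNIP was near level.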
